A study of Homo sapiens with 18 samples.

Results

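The 10 genes described here encode the pyruvate dehydrogenase kinases (*PDK1*, *PDK2*, *PDK3* and *PDK4*), a phosphatase that opposes them (*PDP1*), subunits of the pyruvate dehydrogenase (PDH) complex (*PDHA1*, *PDHB* and *DLAT*) and the mitochondrial pyruvate carrier (*MPC1* and *MPC2*). They were selected by gene symbol from the 21944 genes of the authors' deposited table, and all 10 were listed and tested at each of 3 times. The cells were pancreatic progenitors at day 19 of differentiation from human embryonic stem cells. They carried the NGN3-GFP reporter for the endocrine factor NEUROG3 and derived from the SA121 line according to the growth protocol, and the study likewise describes the sequenced cells as derived from NGN3-GFP, whereas the cell line field of the sample labels names HUES4. All cells were detached with accutase and reseeded either on LN411, a laminin isoform on which cells adhere weakly, or on fibronectin (FN), and were collected for bulk RNA sequencing 3, 6 or 24 h later. There were 3 samples on each matrix at each time, 18 in all, which the study describes as biological replicates. FN served as the control at each time, and no group was left without reseeding.

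Pyruvate enters mitochondria through the carrier formed by MPC1 and MPC2. In the matrix, the PDH complex converts it to acetyl-CoA: the E1 enzyme, made of the alpha subunit PDHA1 and the beta subunit PDHB, decarboxylates pyruvate, and the E2 enzyme DLAT forms the core of the complex and transfers the acetyl group to coenzyme A. The PDKs bind to E2 and switch E1 off by phosphorylating PDHA1, and the phosphatases, of which PDP1 is the calcium-sensitive one, switch it on again. *PDK4* is the family member best known for transcriptional induction, in fasting and by PPAR, FOXO and glucocorticoid receptor pathways, whereas *PDK1* is a known target of hypoxia-inducible factor.

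Log2 fold changes compare LN411 with FN and are, with their standard errors (SE), the authors' estimates in the deposited table. Genes with an adjusted p-value under 0.05, recomputed here over all genes tested at a time, are referred to as called. The table gives no values per sample. Library depth is therefore unknown, the overlap of samples cannot be given and replicates contribute only through the SE. In the members, the SE ranged from 0.037 to 0.11 over the 3 times. At 6 h it was larger than in 91.9% of the 1554 genes with a similar mean count for *PDK4*, and larger than in 88.8% of 573 genes for *DLAT* and 96.9% of 1748 genes for *PDP1*, where similar means within 25%. The RNA came from whole wells, in which fewer cells of a type and less RNA per cell cannot be told apart.

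The stretches before the transcription starts of *PDK4*, *DLAT* and *MPC2* are shown because these genes had the largest effects of LN411 among the members at 24 h. Each covers the 250 bases upstream of a RefSeq start on GRCh38.p14, at chr7:95596517-95596766 on the minus strand for *PDK4*, chr11:112025158-112025407 on the plus strand for *DLAT* and chr1:167937073-167937322 on the minus strand for *MPC2*. Capitals mark the GC box, spelled GGGCGG. They also mark the CCAAT box, and the letters ACGTG, which are the core of the hypoxia response element. All were searched on both strands.
PDK4: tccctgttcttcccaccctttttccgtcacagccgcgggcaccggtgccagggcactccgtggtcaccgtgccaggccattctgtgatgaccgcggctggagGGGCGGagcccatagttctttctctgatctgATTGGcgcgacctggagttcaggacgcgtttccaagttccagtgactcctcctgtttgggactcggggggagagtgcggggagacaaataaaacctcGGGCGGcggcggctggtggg
DLAT: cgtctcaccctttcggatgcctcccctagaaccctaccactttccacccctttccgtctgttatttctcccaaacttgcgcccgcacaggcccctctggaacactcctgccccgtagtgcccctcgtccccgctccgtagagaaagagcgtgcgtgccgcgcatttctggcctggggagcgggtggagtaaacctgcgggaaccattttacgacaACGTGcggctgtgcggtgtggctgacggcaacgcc
MPC2: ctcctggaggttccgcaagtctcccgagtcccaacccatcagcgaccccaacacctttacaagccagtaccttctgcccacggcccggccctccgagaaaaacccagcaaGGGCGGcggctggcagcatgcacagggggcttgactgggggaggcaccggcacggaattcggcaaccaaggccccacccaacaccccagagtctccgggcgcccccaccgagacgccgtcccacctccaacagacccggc

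The *PDK4* stretch contains 2 GC boxes, the nearer of which begins 20 bases before the start, and a CCAAT box on the opposite strand. The *DLAT* stretch contains a single match, to ACGTG, which begins 35 bases before the start, and the *MPC2* stretch contains 1 GC box. RefSeq lists 2 further starts of *MPC2*, of which one lies 3 bases away with the same GC box, and the other has 3 GC boxes and a CCAAT box in its stretch, which is not shown. No marked stretch overlaps another in these 3 sequences. Of 34788 different stretches of this length before RefSeq starts, 42.6% hold a GC box, 32.02% a CCAAT box and 18.5% ACGTG. A forkhead core (TGTTTAC, in 2.98% of all stretches) and a TEAD core (GGAATG, in 11.9%) were also searched, and neither stands in these 3 windows. Their GC content is 62.8% for *PDK4*, 62.0% for *DLAT* and 67.2% for *MPC2*, against a median of 58.0%. These matches describe the letters only, and binding was not measured.

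The genes lie on 9 chromosomes, and their annotation affects how well their reads can be separated from those of neighbours. *PDK4* (ENSG00000004799) has 11 exons in its canonical transcript. The antisense gene *PDK4-AS1* spans all of *PDK4*, but shares none of its exon bases in GENCODE v44, and its mean normalized count was 34.6 against 4697 for *PDK4*. *DLAT* (ENSG00000150768, chromosome 11, 112025408 to 112064404) shares 1004 exon bases with *PIH1D2* on the opposite strand, and *MPC2* (ENSG00000143158, chromosome 1, 167916675 to 167937072) shares 575 with *DCAF6*. *PDK2* (ENSG00000005882, chromosome 17, 50094737 to 50112152) is the least certain, since *SAMD14* on the opposite strand covers 62.8% of its canonical transcript. The sources used here do not say whether counting used the strand, and without it such reads cannot be assigned to either gene.

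Among the kinases, *PDK4* and *PDK1* were the most abundant by read number, with mean normalized counts over all samples of 4697 and 4718, against 761.4 for *PDK3* and 516.3 for *PDK2*. Per kilobase of the canonical transcript, however, *PDK4* had a level of 1304, *PDK3* 437, *PDK1* 335 and *PDK2* 153. *PDK4* accounted for 58.5% of the summed level of the 4 kinases on this scale, and for 69.4% when all annotated exons were used as the length. *PDK3*, whose annotated exons add up to 17.5 kb against 1.74 kb in the canonical transcript, fell to a level of 43.6 on the latter scale, so that its place relative to *PDK1* and *PDK2* is uncertain. The place of *PDK2* is uncertain too, since its length includes the 62.8% of the canonical transcript shared with *SAMD14*. The part of these shared bases in its level and in the percentages was not tested. The lead of *PDK4* over *PDK1* rests on length, since their read numbers were alike. The canonical transcript is 14.1 kb for *PDK1* and 3.60 kb for *PDK4*, and all annotated exons add up to 14.8 and 4.54 kb. Whether the cells used shorter transcripts of *PDK1* was not tested, so the percentages are uncertain in this respect too.

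*DLAT* had the highest level of the members, with 3148 per kilobase of canonical transcript, followed by *PDHB* with 2381, and *PDHA1*, the target of the kinases, had 1175, below the 1304 of *PDK4*. Both carrier genes lay within this range, with 1907 for *MPC2* and 1196 for *MPC1*, and *PDP1* had 331. *DLAT* remained first and *MPC2* became second when all annotated exons were used, while *PDHB* fell below *PDK4* and *PDHA1*. The spread of these levels over samples was not available to this comparison, and neighbours in the order, such as *MPC1* and *PDHA1*, cannot be separated. The lengths also include bases shared with other genes, 28.5% of the canonical transcript for *PDHA1*, 25.9% for *DLAT* and none for *PDK4*. If reads over shared bases were left uncounted, the level of *PDHA1* is too low. The order of *PDHA1* and *PDK4* is therefore uncertain, and its dependence on the shared bases was not tested.

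**Figure D1:**
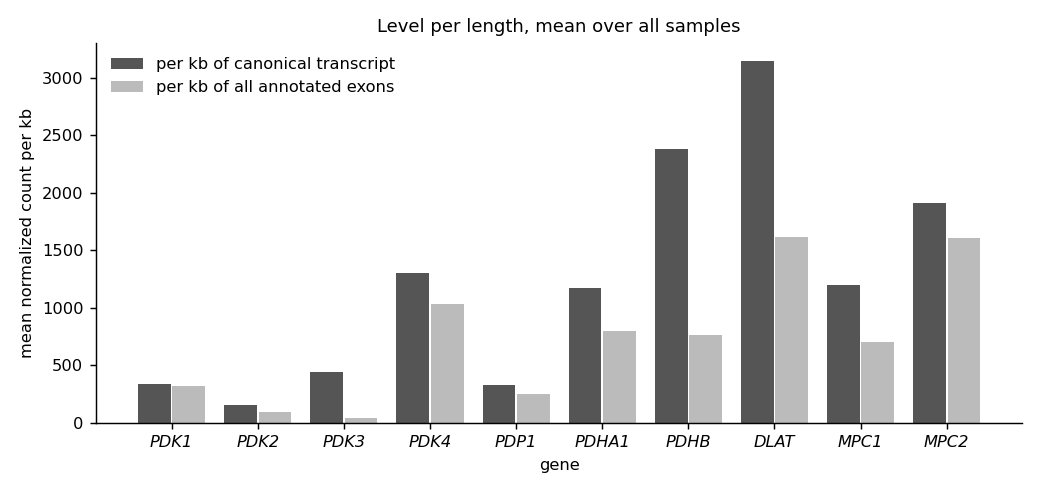
Mean normalized count over all samples divided by length in kilobases (vertical axis) for each of the 10 genes, with dark bars for the canonical transcript and light bars for all annotated exons. The dark bar of *DLAT* is the highest at 3148 and that of *PDK2* the lowest at 153, and *PDK4* stands above the other kinases on both lengths. Both lengths include exon bases shared with other genes.

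Of the 10 members, 0 were called at 3 h, when 0.383% of all tested genes were called. At an unadjusted p-value under 0.05, 1 member, *PDK4*, passed at 3 h, and with a t distribution in place of the normal one 0 were called. At 6 h, *PDK4* and *PDHB* were called, both higher on LN411, which is 2 of 10 members against 8.23% of all genes in either direction, 4.9% higher and 3.33% lower. At 24 h, 5 of 10 were called against a background of 29.5%. Of these, *PDK4*, *MPC2*, *PDK3* and *MPC1* were higher on LN411, against 16.7% of all genes, and *DLAT* was lower, against 12.8%. In the order of the times, the members had median log2 fold changes of −0.015, 0.019 and 0.071, and all tested genes had 0.0093, 0.022 and 0.012.

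**Figure D2:**
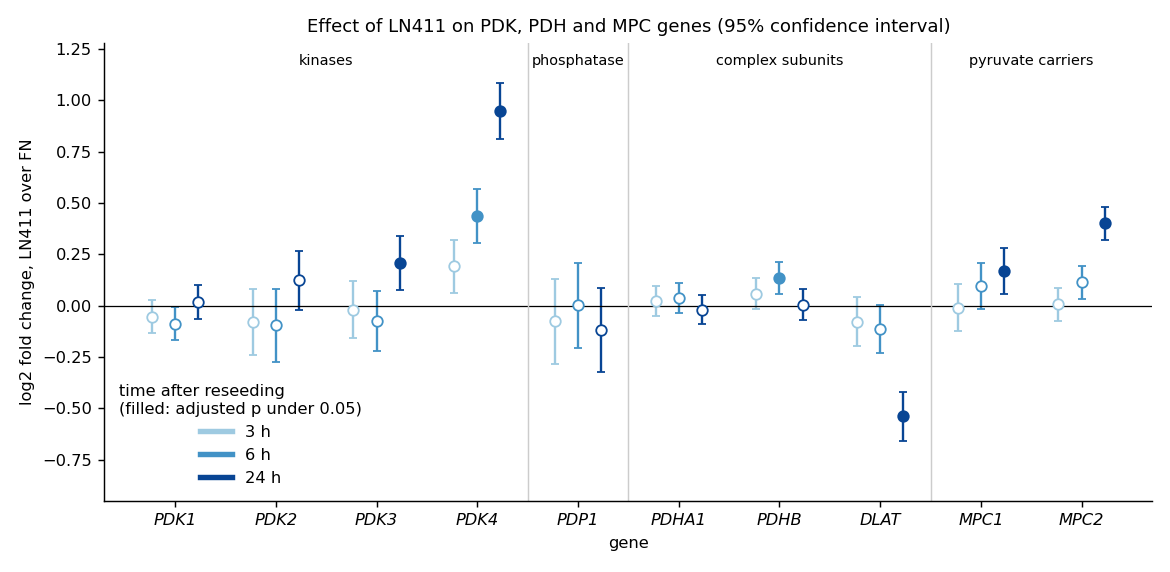
Log2 fold change of LN411 over FN (vertical axis) for the 10 genes, grouped by role, for cells collected at 3, 6 and 24 h (light to dark); points are the authors' estimates from 3 samples on each matrix, bars are 95% confidence intervals and filled points have an adjusted p-value under 0.05. *PDK4* stands at 0.19, 0.44 and 0.95 and *DLAT* at −0.54 at 24 h, whereas the values of *PDK1* and *PDHA1* lie within 0.1 of 0 at each time.

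*PDK4* was the kinase with the largest effect at each time. The study picked it for follow-up in part from these same samples, so that its direction here is not independent evidence. The choice also drew on cells treated with the actin-depolymerizing agent latrunculin B and on earlier literature. Higher *PDK4* on LN411 was also reported by the study at 24 h by qPCR and Western blot. *PDK4* was 14.1% higher on LN411 at 3 h, with a 95% confidence interval of 4.44% to 24.8%, but did not pass adjustment over all genes. At 6 h it was 35.3% higher (interval 23.7% to 48.0%) and at 24 h 92.8% higher (interval 75.3% to 112%). Among all listed genes it ranked 182nd by p-value at 3 h, 68th at 6 h and 202nd at 24 h. Its antisense gene *PDK4-AS1* had a log2 fold change of 0.38 (SE 0.31, adjusted p = 0.393) at 24 h, and was not called at 3 h, while it had no adjusted p-value at 6 h.

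The other kinases differed from *PDK4* in their estimates. *PDK1*, the hypoxia-responsive kinase, had log2 fold changes of −0.053, −0.087 and 0.018 at 3, 6 and 24 h, none of them called. At 24 h its interval ran from −4.36% to 7.14%, so that a change of the size of *PDK4* lies outside it. *PDK2*, which is broadly expressed, had log2 fold changes of −0.080, −0.096 and 0.12, the last with an adjusted p of 0.210, and its neighbour *SAMD14* was lower by the end, at −0.37 (adjusted p = 0.00524). *PDK3* was not called at 3 or 6 h and was 15.5% higher on LN411 at 24 h (interval 5.49% to 26.4%, adjusted p = 0.00851). The log2 fold change of *PDK4* exceeded that of *PDK1* by 0.52 (interval 0.37 to 0.68) at 6 h and by 0.93 (interval 0.77 to 1.09) at 24 h. It exceeded that of *PDK2* by 0.82 (interval 0.62 to 1.02) and that of *PDK3* by 0.74 (interval 0.55 to 0.93) at 24 h. These intervals add the SEs of both genes as if independent, and no p-value was attached to them.

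*PDP1*, the phosphatase that reverses kinase action, was not called at any time. Its estimates in the order of the times were −0.076, 0.0015 and −0.12, the last with an adjusted p of 0.432. The interval at 24 h, −20.1% to 6.03%, reflects the largest SE among the members, 0.10 on the log2 scale, and differences inside it remain compatible with the estimate. Of the 4 further PDH genes that were listed, the second phosphatase gene *PDP2* was lower on LN411 at 24 h, with a log2 fold change of −0.14 (SE 0.056, adjusted p = 0.0357). *PDP2* was the only one of them called at this time, against 29.5% of all tested genes. *PDPR*, which encodes a regulatory subunit of the phosphatase, had 0.043 (adjusted p = 0.470) at the same time. None of these 4 genes was called at 3 or 6 h, against 0.383% and 8.23% of all tested genes. With an unadjusted p-value under 0.05 there were also 0 at these times.

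The subunits of E1 showed small effects. *PDHA1*, which carries the sites that the kinases phosphorylate, had log2 fold changes of 0.022, 0.038 and −0.020, and its interval at 24 h ran from −6.15% to 3.68%. *PDHB* was 9.77% higher on LN411 at 6 h (interval 4.09% to 15.8%, adjusted p = 0.0124). Under the alternatives, this adjusted p lay between 0.0072 and 0.104, and *PDHB* was not called with a t distribution or after centring the median fold change at 0 (adjusted p = 0.0511). At 24 h, the log2 fold change of *PDHB* was 0.0053 (adjusted p = 0.943). *MAP3K15*, which shares 28.5% of the canonical exon bases of *PDHA1* as its only overlapping neighbour, had a mean normalized count of 45.2 against 3936 for *PDHA1*.

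*DLAT*, the E2 core, moved the other way. Its estimates at 3 and 6 h were −0.078 and −0.11 on the log2 scale, neither of them called. By 24 h, the log2 fold change was −0.54 (SE 0.061, adjusted p = 3.16e-17), a difference of −31.2% with an interval of −36.7% to −25.2%. *DLAT* lay below *PDHA1* by 0.52 (interval 0.38 to 0.66) and below *PDHB* by 0.54 (interval 0.40 to 0.69) on the log2 scale at 24 h. Its neighbour *PIH1D2*, with a mean normalized count of 155.7 against 12208 for *DLAT*, had −0.10 (adjusted p = 0.596). The remaining subunits of the complex did not share the value of *DLAT* at 24 h: *PDHX*, the E3-binding protein, had 0.029 (SE 0.041, adjusted p = 0.668) and *DLD*, the E3 enzyme, had 0.029 (SE 0.046, adjusted p = 0.701).

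Both genes of the pyruvate carrier were higher on LN411 at 24 h. *MPC2* was 32.1% higher (interval 24.9% to 39.7%, adjusted p = 5.23e-21) and *MPC1* 12.5% higher (interval 4.16% to 21.6%, adjusted p = 0.0123). The log2 fold change of *MPC2* exceeded that of *MPC1* by 0.23 (interval 0.094 to 0.37) at 24 h, whereas at 6 h the difference was 0.017 (interval −0.12 to 0.15). At 6 h, *MPC2* had a log2 fold change of 0.11 (SE 0.041, adjusted p = 0.0611) and *MPC1* had 0.095 (SE 0.057, adjusted p = 0.345). The call of *MPC1* at 24 h was lost when trends with GC content and length were removed (adjusted p = 0.0927, with a range of 0.009 to 0.0927 over the alternatives). *DCAF6*, which overlaps *MPC2* on the opposite strand and had a mean normalized count of 3843, was also higher at 24 h, with a log2 fold change of 0.13 (adjusted p = 0.00845). The part of the shared exon bases in the value of *MPC2* was not tested.

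The change of the LN411 effect with time was tested as the difference of log2 fold changes, with adjustment over all genes listed at both times. Between 3 and 6 h, the effect differed for 0 of the 10 members and for 0.257% of all genes; at an unadjusted p-value under 0.05 it differed for 1 member, *PDK4*, and with a t distribution for 0. Between 6 and 24 h, it differed for 4 members, against 12.8% of all genes, and between 3 and 24 h for 3 members, against 17% of all genes. The comparison of times treats their libraries as independent.

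From 6 to 24 h, the effect grew in favour of LN411 by 0.51 (interval 0.32 to 0.70) for *PDK4* and by 0.29 (interval 0.18 to 0.40, adjusted p = 1.59e-05) for *MPC2*. For *DLAT*, it moved by −0.43 (interval −0.59 to −0.26, adjusted p = 1.90e-05). *PDK3* moved by 0.28 (interval 0.088 to 0.48, adjusted p = 0.0376), but not with a t distribution (adjusted p = 0.126, the highest of a range from 0.0279 over the alternatives). For *PDHB*, the fall of the estimate from 6 to 24 h was −0.13 (interval −0.24 to −0.022, adjusted p = 0.111), which did not pass, so that the call at 6 h and its absence at 24 h are not shown to differ. *MPC1* had a difference of 0.075 (interval −0.083 to 0.23, adjusted p = 0.677) over the same period. *PDP1*, *PDHA1*, *PDK1* and *PDK2* were not called in any of the 3 comparisons of times.

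From 3 to 24 h, the differences of *PDK4* (0.76, interval 0.57 to 0.94), *MPC2* (0.39, interval 0.28 to 0.51) and *DLAT* (−0.46, interval −0.63 to −0.29) passed, with adjusted p-values of 1.81e-13, 4.04e-10 and 1.95e-06. For *PDK3*, this difference was 0.23 (interval 0.037 to 0.42, adjusted p = 0.0927), which did not pass.

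**Figure D3:**
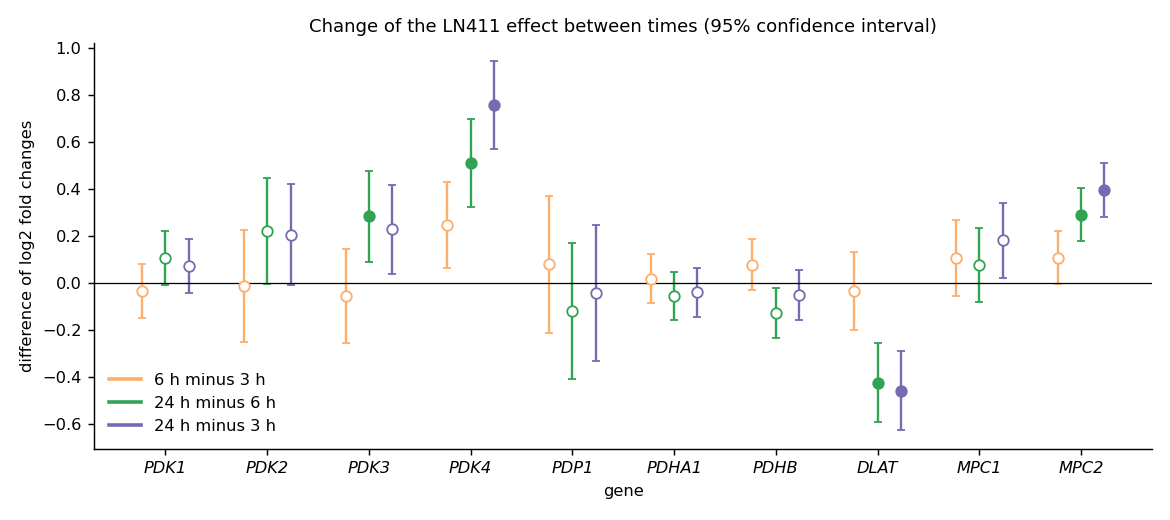
Difference between the log2 fold changes of LN411 over FN at 2 times (vertical axis) for the 10 genes; colours give the pair of times, bars are 95% confidence intervals and filled points have an adjusted p-value under 0.05. The filled points belong to *PDK3*, *PDK4*, *DLAT* and *MPC2*, with *PDK4* highest at 0.76 from 3 to 24 h and *DLAT* lowest at −0.46.

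The genes whose log2 fold changes at the 3 times lay nearest to those of *PDK4* were found among 13113 other genes, all with mean normalized counts of 100 or more, by Euclidean distance over the 3 values. They were *HEY1*, a Notch-responsive repressor, at a distance of 0.060, the intestinal homeobox gene *CDX2* at 0.10, the ER stress gene *HERPUD1* at 0.11, the neuropeptide Y receptor gene *NPY5R* at 0.11 and *FAM135B* at 0.13. *HEY1* had log2 fold changes of 0.14, 0.46 and 0.93, and *CDX2* 0.21, 0.53 and 0.91. The likeness rests on 3 values for each gene and was not tested.

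**Figure D4:**
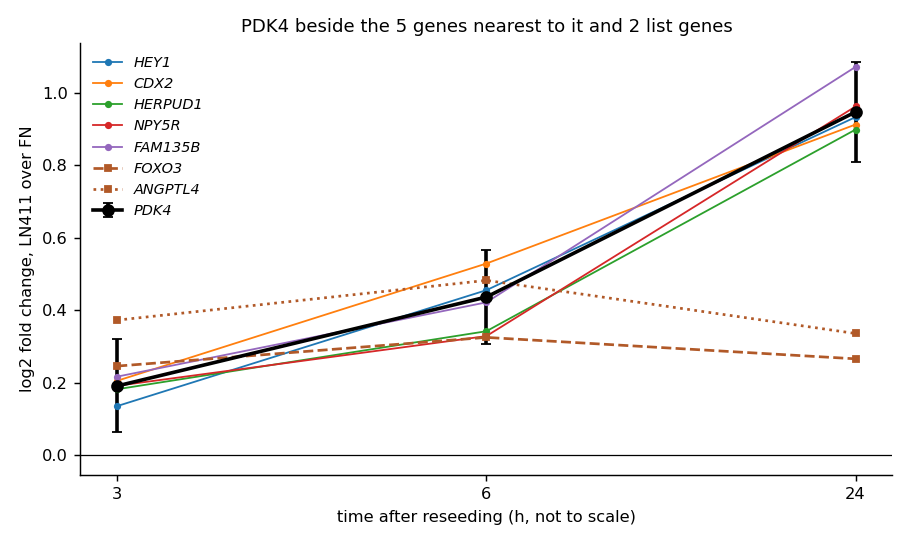
Log2 fold change of LN411 over FN (vertical axis) against the time of collection (3, 6 and 24 h) for *PDK4* (black, with 95% confidence intervals), the 5 genes nearest to it (thin lines) and *FOXO3* and *ANGPTL4* (dashed and dotted lines), which were chosen for display after their values were seen. *PDK4* runs from 0.19 to 0.95, and *FOXO3* stays between 0.25 and 0.32.

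Among 10 genes for factors known to act on *PDK4* transcription, only *FOXO3* was called at 3 h, against 0.383% of all tested genes. *FOXO3*, a forkhead factor active when insulin signalling is low, had log2 fold changes of 0.25 (SE 0.049, adjusted p = 0.000454) at 3 h, 0.32 (SE 0.048, adjusted p = 2.46e-09) at 6 h and 0.27 (SE 0.048, adjusted p = 4.92e-07) at 24 h. Its effect from 3 to 24 h moved by 0.020 (interval −0.11 to 0.15), against 0.76 for *PDK4*, and these 2 values were not tested against each other. At 6 h, when 9 of the 10 were tested and 8.23% of all genes were called, *FOXO3*, *RXRA* and *FOXO1* were higher on LN411 and *NR3C1*, the glucocorticoid receptor gene, was lower by 0.53 on the log2 scale (adjusted p = 2.62e-07). By 24 h, the value of *NR3C1* was −0.029 (adjusted p = 0.870). At that time, 5 of the 10 genes were higher and 1 was lower, against 16.7% and 12.8% of all tested genes. The smallest p-value was that of *RXRA*, the partner receptor of the PPARs, with a log2 fold change of 0.32 (SE 0.041, adjusted p = 6.87e-14), and *PPARG*, the adipogenic PPAR, had 0.64 (SE 0.15, adjusted p = 0.00014). *PPARA* and *PPARD* were not called at any time, with 0.088 and 0.055 at 24 h. The lower gene was the coactivator *PPARGC1A*, with a log2 fold change of −0.61 (SE 0.24, adjusted p = 0.0441), and its relative *PPARGC1B*, at a mean normalized count of 44.1, was higher with 1.20 (SE 0.31, adjusted p = 0.000706). *NR3C1*, *PPARGC1A* and *PPARGC1B* were singled out after their values were seen. Over the whole list, the medians in the order of the times were 0.047, 0.13 and 0.14.

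Genes of fatty acid oxidation and other PPAR targets, which are induced together with *PDK4* in fasting tissues, were called in 1 of 13 tested genes at 3 h, 2 of 12 at 6 h and 9 of 13 at 24 h, against 0.383%, 8.23% and 29.5% of all tested genes. All of those at 3 and 6 h were higher on LN411, and at 24 h 8 were higher and 1 was lower. *ANGPTL4*, a secreted inhibitor of lipoprotein lipase, was the gene called at 3 h, with a log2 fold change of 0.37 (adjusted p = 8.67e-10). *PLIN2*, which coats lipid droplets, had a mean normalized count of 9624 and was higher by 0.36 (SE 0.075, adjusted p = 0.000112) at 6 h and by 0.59 (SE 0.075, adjusted p = 9.67e-14) at 24 h. *FABP1*, the liver fatty acid binding protein gene, had 1.77 (SE 0.19, adjusted p = 6.43e-19) at 24 h. The lower gene was *ACSL1*, which activates long-chain fatty acids, with −0.50 (SE 0.052, adjusted p = 1.18e-20). *CPT1A*, the gatekeeper of mitochondrial fatty acid import, was not called at any time and had −0.053 (adjusted p = 0.675) at 24 h. Medians over these genes were 0.046, 0.054 and 0.27 in the order of the times.

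For other fates of pyruvate and the supply of acetyl-CoA, 16 of 18 genes were listed. At 24 h, 2 were higher on LN411 and 6 were lower, against 16.7% and 12.8% of all tested genes, and the median was −0.10. The lower genes included *LDHA*, which encodes the lactate dehydrogenase subunit that favours lactate formation, with a log2 fold change of −0.35 (SE 0.057, adjusted p = 1.08e-08), and *ACLY*, which makes cytosolic acetyl-CoA from citrate, with −0.21 (SE 0.028, adjusted p = 6.93e-12). Pyruvate kinase *PKM*, the monocarboxylate transporters *SLC16A3* and *SLC16A7* and the transaminase *GPT2* were the other lower genes. The higher genes were *ME1*, a cytosolic malic enzyme that forms pyruvate, with 0.51 (SE 0.071, adjusted p = 1.75e-11), and *PC*, the carboxylase that turns pyruvate into oxaloacetate, with 0.24 (adjusted p = 0.00209). At 6 h, 1 of 15 tested genes was called, the citrate carrier *SLC25A1*, against 8.23% of all tested genes. At 3 h there were 0, against 0.383% of all tested genes, with 1 at an unadjusted p-value under 0.05.

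In the citric acid cycle, which takes up the acetyl-CoA, 8 of 15 genes were called at 24 h, against 29.5% of all tested genes. Of these, 6 were higher on LN411 and 2 were lower, and the median of the list was 0.11. *SUCLG1* had a log2 fold change of 0.32 (SE 0.046, adjusted p = 7.67e-11), *IDH2* had 0.23 (SE 0.040, adjusted p = 2.09e-07), and *IDH3A* had −0.28 (SE 0.059, adjusted p = 1.82e-05). The other lower gene was citrate synthase, *CS*, with −0.10 (adjusted p = 0.0176). At 6 h only *IDH2* was called, with 0.12 (adjusted p = 0.0493), against 8.23% of all tested genes. At 3 h there were 0, against 0.383% of all tested genes, with 1 at an unadjusted p-value under 0.05. Of 12 genes for lipoic acid synthesis and attachment, for related oxoacid dehydrogenase complexes and for regulators of these complexes, 11 were listed. At 24 h, when 29.5% of all tested genes were called, *BCKDHB*, with 0.28 (SE 0.057, adjusted p = 7.72e-06), and *OGDH*, with 0.20 (SE 0.050, adjusted p = 0.000364), were higher and none was lower. *LIAS*, the lipoic acid synthase, had 0.16 (SE 0.081, adjusted p = 0.144). At 6 h, when 8.23% of all tested genes were called, only *PPM1K*, the phosphatase of the branched-chain complex, was called. It was lower, with −0.30 (adjusted p = 0.00126). At 3 h there were 0 calls in this list, against 0.383% of all tested genes, with 1 gene at an unadjusted p-value under 0.05.

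**Figure D5:**
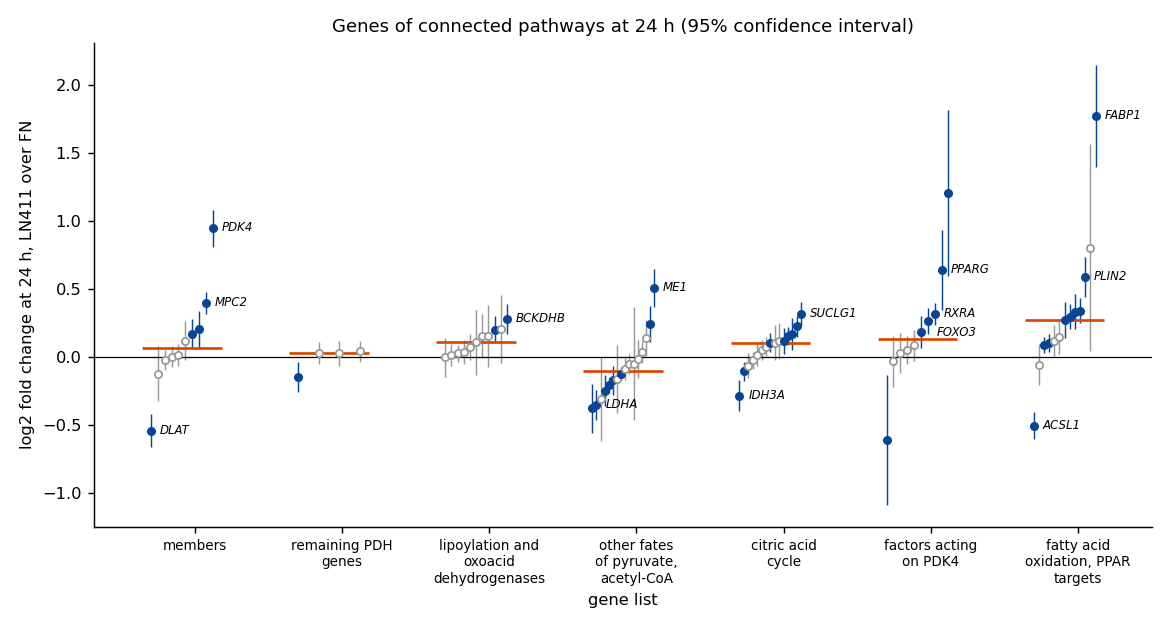
Log2 fold change of LN411 over FN at 24 h (vertical axis) for the members and for the genes of 6 connected lists; bars are 95% confidence intervals, filled points have an adjusted p-value under 0.05 and orange lines are medians. The highest point is *FABP1* at 1.77 among the PPAR targets, and the median of the genes for other fates of pyruvate, at −0.10, is the only one below 0.

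Markers of the progenitors were present, with mean normalized counts of 12933 for *PDX1*, 20672 for *SOX9* and 3040 for *NKX6-1*. The pluripotency genes *POU5F1* and *NANOG* were not listed under these symbols at any time. Genes that mark other lineages were also expressed. At 24 h, 5 of 7 endocrine markers were higher on LN411, against 16.7% of all tested genes, and of the liver markers *AFP* and *TTR*, with mean normalized counts of 26676 and 57268, were higher as well, while *ALB* was not called. Of the 2 intestinal markers *CDX2* was higher and *VIL1* lower, and of 4 mesenchymal markers *PDGFRB* was lower. Of all tested genes, 16.7% were higher and 12.8% lower at this time. The endothelial markers *PECAM1* and *KDR* had mean normalized counts of 75.0 and 47.9 and were not called, and *CDH5* was listed only at 6 h. At 6 h, *NKX2-2* was the only endocrine marker called, and it was higher, against 4.9% of all tested genes. At this time *INS* was not listed, *NEUROD1* and *GCG* had no adjusted p-value, and 0 of 3 liver markers were called. *CDX2* was called and higher on LN411 at 3 and 6 h too, with log2 fold changes of 0.21 and 0.53. The part of these cell types in the values of *PDK4*, *DLAT*, *MPC2* and the PPAR targets was not tested.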

How the data were processed

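Poly(A) RNA of 18 samples was sequenced. Per the labels and the study's methods, the authors aligned reads with STAR 2.7.2d to GRCh38 (hg38), counted them per gene on GENCODE v32 and used DESeq2 1.34.0 to compare the matrices at each time. The model formula and the strand setting are not given in the sources used here.

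The authors' deposited table was analysed. Its mean normalized count is a signal averaged by the authors over all samples. Its log2 fold change and SE are the authors' log2 estimates. Their ratio, the Wald statistic, is a deposited score, and it comes with the authors' p-value and adjusted p-value. The table holds the authors' own comparisons and nothing per sample, and the adjusted p-values printed here were recomputed from the deposited estimates, with Benjamini-Hochberg adjustment over the genes that have a deposited adjusted p-value (17487, 12943 and 19569 genes at 3, 6 and 24 h). The largest gap to a deposited value was 9.72e-06. The count models planned for values per sample were replaced by these estimates.

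Intervals are 95% normal intervals from the SE. Time differences were divided by the root of the summed squared SEs, with two-sided normal p-values, adjusted over every gene present at both of the times. Positions, exons and lengths were those of GENCODE v44 on GRCh38, a later annotation than that of the authors, and promoter stretches were those of RefSeq, matched by symbol for 9 of the 10 genes (not *PDP1*). The tests were run on simulated estimates with normal errors of the size of the deposited SEs. Such a run cannot check the assumption of normal errors itself. Of 200 genes given an effect at 24 h, 179 were called, with 15 false calls. For the difference between 6 and 24 h, 155 were called, with 4 false calls.

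The members and all gene lists were chosen with earlier results of these data known. Named were all members, all further PDH genes, the 3 genes with the smallest p-values at 24 h of each other list and the 5 genes nearest to *PDK4*; other names were chosen after values were seen. A few single-gene results were left out. Alternatives were a threshold of 0.01, no independent filtering, a minimum mean count of 100, a t distribution with 12 degrees of freedom, centring on the median, removal of GC content and length trends (25 bins, 3 rounds) and a minimum absolute log2 fold change of 0.2. Software was Python 3.11.15 with scipy 1.17.1, pandas 2.3.3, numpy 2.4.6 and matplotlib 3.10.9.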

Additional observations from a re-analysis of the deposited data

Results flagged for a closer look

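The effect of LN411 differed between times for 4 members by a test of the difference itself, given as the change of the log2 fold change. The share of all genes that differed was 12.8% between 6 and 24 h and 17% between 3 and 24 h. From 6 to 24 h, it moved by 0.28 for *PDK3*, by 0.51 for *PDK4*, by −0.43 for *DLAT* and by 0.29 for *MPC2*. From 3 to 24 h, it moved by 0.76 for *PDK4*, by −0.46 for *DLAT* and by 0.39 for *MPC2*. The change of *PDK3* did not pass with a t distribution, with a threshold of 0.01 or after removal of GC content and length trends. The endocrine markers *NEUROG3* and *CHGA* had log2 fold changes of 2.54 and 1.05 at 24 h and 0.45 and 0.17 at 6 h, and their part in these differences was not tested.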

How the results depend on the processing

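At 6 h, 1 member in place of 2 was called with a threshold of 0.01, with a t distribution, after centring on the median and with a minimum absolute log2 fold change of 0.2; in each case *PDHB* was lost. The counts of members called at 3 h and 24 h and those of members whose effect differed between times stayed within 1.5 times under every alternative run. *MPC1* at 24 h lost its call with a threshold of 0.01, with the minimum fold change and without GC content and length trends. Of the values that were not called, several near 0 changed sign. After centring, *MPC2* had −0.0044 at 3 h, *PDP1* −0.020 at 6 h, and *PDK1* −0.0032 and *PDHB* −0.016 at 24 h. Without GC content and length trends, *PDK3* had 0.0086 at 6 h and *PDHB* −0.0058 at 24 h, and the differences between 3 and 6 h were 0.022 for *PDK1* and 0.014 for *PDK3*. The cause of these changes was not tested. No paired analysis was possible because values per sample were not analysed here. For the same reason, leaving out replicates, other normalizations of counts and other count models were not run. The depth of the libraries is unknown. At 24 h, the 95% intervals ran from −20.1% to 6.03% for *PDP1* and from −1.37% to 20.3% for *PDK2*. Differences inside these intervals remain compatible with the estimates.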
